A study of Mus musculus with 2 samples.

Results

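The 10 genes described here are Nfe2l2, which encodes the transcription factor NRF2, and 9 of its antioxidant targets: Nqo1, Hmox1, Gclc, Gclm, Srxn1, Txnrd1, Gsr, Slc7a11 and G6pdx. They were taken by gene symbol from the 28692 genes of the deposited tables, and each symbol matched 1 gene. UMIs (counted transcript molecules) of these genes were read in 2 droplet libraries of primary hepatocytes, the main metabolic cells of the liver, from C57BL/6 mice, embedded in a basement membrane gel and grown in 3 dimensions. The expansion library came from medium that held CHIR99021, which blocks GSK3 kinases, at 3 uM, with 100 ng/mL TNF, 25 ng/mL EGF and 50 ng/mL HGF, and the induction library from medium with the same amounts of EGF and HGF and 3 uM dexamethasone, a synthetic glucocorticoid, but no CHIR99021 or TNF. Both media held 10 uM Y27632 (a ROCK inhibitor), 1 uM A83-01 (a TGF-beta receptor inhibitor), 100 mM nicotinamide and 1.25 mM N-acetylcysteine, a thiol that supplies cysteine, together with B27 and N2 supplements. The labels name no animals, sexes or time in culture. Each medium had 1 library, so differences between the media are untested and unreplicated, and the factors that differ cannot be told apart. Intervals in brackets are 95% intervals that cover counting error only.

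NRF2 is made continuously and, in unstressed cells, is bound by KEAP1 and passed by the CUL3 ubiquitin ligase to the proteasome. Oxidants and electrophiles modify cysteines of KEAP1, NRF2 then accumulates, pairs with a small MAF protein in the nucleus and binds antioxidant response elements near its targets. The targets make glutathione, keep glutathione and thioredoxin reduced, and detoxify quinones and heme. Because NRF2 is controlled largely through protein stability, the level of its transcript is not a measure of its activity.

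With a minimum of 500 genes per cell and a mitochondrial share of at most 25%, 1191 expansion and 1245 induction cells remained, with 29390000 and 9201887 UMIs. The median cell held 23184 and 6765 UMIs, and 4 barcodes of kept cells occurred in both libraries. All 10 hepatocyte markers of the list used here were detected in both libraries. Some markers of other cell types were counted: 7 and 6 of 8 bile duct genes were detected, led by Spp1 (1307 and 661 CPM), Sox9 (103 and 74.8 CPM) and Prom1 (63.8 and 22.4 CPM), as were the endothelial-list gene Egfl7 (38.8 and 33.6 CPM) and the stellate-list gene Reln (29.4 and 13.1 CPM). The macrophage-list genes Cd68 (40 and 6 UMIs) and Lyz2 (12 and 1) were counted at low levels. So were the endothelial-list genes Pecam1 (16 and 3) and Stab2 (4 and 3) and the stellate-list gene Pdgfrb (4 and 1). Other genes of these lists, the macrophage genes Ptprc and Adgre1 and the fibroblast genes Col1a1 and Col3a1, were at 0 UMIs throughout. The endothelial genes Kdr and Cdh5 and the bile duct gene Krt7 were also at 0 UMIs. Xist, the RNA of the inactive X chromosome in female cells, and Y-linked transcripts were both counted in each library. Free RNA was gauged by Xist at 2000 UMIs per cell, in cells sorted by their Y-linked UMIs before thinning. Of cells with at least 2 Y-linked UMIs, 3.51% in expansion and 1.10% in induction medium held an Xist UMI. Of cells with 0 Y-linked UMIs, 66.2% and 52.8% did. The mean Xist count of the former was 2.53% and 0.484% of that of the latter. The median depths of both kinds of cells were 24990 and 22279 UMIs in expansion medium and 7900 and 6411 UMIs in induction medium.

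RefSeq promoter windows of build GRCm38.p6, from 250 bases before to 50 after the start site, were at hand for 7 of the 10 genes. The antioxidant response element core was searched on both strands as TGACNNNGC, together with the AP-1 element TGANTCA, which can overlap it, that element followed by GC (TGANTCAGC), and the C/EBP-ATF response element TGATGCAA, to which ATF4 binds. The last 2 motifs were added after the windows had been read. The 7 genes have 9 windows, 3 of them for Txnrd1. The core was found in 5 of the 9 windows (of Nfe2l2, Gclm, Srxn1, Txnrd1 and G6pdx, 1 each) and in 12.4% of 32851 windows of the same length. TGANTCA was found in Srxn1 (7.81% of all windows), as was TGANTCAGC (1.19%), and TGATGCAA in Slc7a11 (0.895%). The stretches before the start site are shown for 4 genes that the results turn on, Nfe2l2 as the regulator, Gclm and Srxn1 as genes of higher level in induction medium, and Slc7a11 as the gene whose level differed most between clusters. They run 5′ to 3′ on the gene's strand, and capitals mark motif matches on either strand.
Nfe2l2, chr2:75704664-75704913, minus strand: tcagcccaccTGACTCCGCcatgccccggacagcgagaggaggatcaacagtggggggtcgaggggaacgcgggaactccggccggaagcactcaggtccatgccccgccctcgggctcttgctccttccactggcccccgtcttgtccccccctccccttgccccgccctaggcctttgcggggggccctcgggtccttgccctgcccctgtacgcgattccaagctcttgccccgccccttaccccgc
Gclm, chr3:122245307-122245556, plus strand: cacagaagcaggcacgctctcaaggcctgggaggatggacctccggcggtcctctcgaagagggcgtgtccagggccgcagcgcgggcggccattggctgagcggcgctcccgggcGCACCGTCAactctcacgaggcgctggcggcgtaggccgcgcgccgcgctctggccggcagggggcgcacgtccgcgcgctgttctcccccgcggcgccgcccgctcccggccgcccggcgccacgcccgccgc
Srxn1, chr2:152105274-152105515, plus strand: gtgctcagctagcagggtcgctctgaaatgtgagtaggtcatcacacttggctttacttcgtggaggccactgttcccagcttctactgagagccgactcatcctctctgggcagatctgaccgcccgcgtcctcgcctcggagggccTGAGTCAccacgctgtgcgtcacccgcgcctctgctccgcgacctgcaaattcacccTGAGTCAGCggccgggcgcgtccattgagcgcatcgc
Slc7a11, chr3:50443615-50443863, minus strand: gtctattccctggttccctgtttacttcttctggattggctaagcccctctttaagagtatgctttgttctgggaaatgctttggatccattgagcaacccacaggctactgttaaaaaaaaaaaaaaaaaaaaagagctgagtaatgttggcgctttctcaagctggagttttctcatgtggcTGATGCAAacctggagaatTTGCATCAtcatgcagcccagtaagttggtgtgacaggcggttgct
In the Srxn1 stretch the matches begin 102 and 45 bases before the start site, and in the Slc7a11 stretch 66 and 47 bases before it. A further TGACNNNGC match of Srxn1 lies after the start site and is not shown. A match is a description of these letters, and binding was not measured.

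The regulator and the reductases made up most of the UMIs of the 10 genes, while the textbook marker Nqo1 was close to absent. A UMI marks 1 molecule whatever the length of the transcript, so levels of different genes are compared as CPM, the UMIs of a gene per 1000000 UMIs of the library. Nfe2l2 (ENSMUSG00000015839, chromosome 2, 75675513 to 75704641, GENCODE M21 on GRCm38) gave 4007 UMIs under expansion and 1320 under induction, or 136 CPM (132 to 141) and 143 CPM (136 to 151). The log2 ratio, induction over expansion, was 0.07 (-0.02 to 0.16), an interval that holds no change. Nfe2l2 alone held 32.1% of the UMIs of the 10 genes in expansion medium and 25.4% in induction medium. In expansion medium 2.51% of all genes stood at or above its level, and in induction medium 2.86%.

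Of the genes that make glutathione, both subunits of the rate-limiting enzyme stood at higher CPM in induction medium, and the cystine importer did not stand apart. Gclc (ENSMUSG00000032350, chromosome 9, 77754535 to 77794485) encodes the catalytic subunit of glutamate-cysteine ligase and Gclm (ENSMUSG00000028124, chromosome 3, 122245557 to 122270732) its modifier subunit. Gclc had 933 and 542 UMIs, or 31.7 CPM (29.7 to 33.8) and 58.9 CPM (54.0 to 64.1), a log2 ratio of 0.89 (0.74 to 1.05). Gclm had 924 and 540 UMIs, or 31.4 CPM (29.4 to 33.5) and 58.7 CPM (53.8 to 63.8), a log2 ratio of 0.90 (0.74 to 1.06). Summed over all cells, the transcripts of the 2 subunits were thus counted in nearly equal numbers in each medium, at 1.01 Gclc UMIs per Gclm UMI in expansion medium (0.921 to 1.11) and 1.00 in induction medium (0.889 to 1.13). Slc7a11 (ENSMUSG00000027737, chromosome 3, 49892526 to 50443614) encodes the transporter that brings in cystine in exchange for glutamate. It had 345 and 116 UMIs, or 11.7 CPM (10.5 to 13.0) and 12.6 CPM (10.4 to 15.1), a log2 ratio of 0.10 (-0.21 to 0.41).

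Among the genes that keep glutathione and thioredoxin reduced, Gsr, Txnrd1 and Srxn1 stood at higher CPM in induction medium. Gsr (ENSMUSG00000031584, chromosome 8, 33652523 to 33698163), the glutathione reductase gene, had 3000 and 1353 UMIs, or 102 CPM (98.5 to 106) and 147 CPM (139 to 155), a log2 ratio of 0.53 (0.43 to 0.62). Txnrd1 (ENSMUSG00000020250, chromosome 10, 82833951 to 82897712), the cytosolic thioredoxin reductase gene, had 1650 and 665 UMIs, or 56.1 and 72.3 CPM, a log2 ratio of 0.36 (0.23 to 0.50). Srxn1 (ENSMUSG00000032802, chromosome 2, 152105516 to 152111376) encodes sulfiredoxin, which repairs over-oxidised peroxiredoxins. It had 696 and 394 UMIs, or 23.7 CPM and 42.8 CPM (38.7 to 47.3), a log2 ratio of 0.85 (0.67 to 1.03).
G6pdx (ENSMUSG00000031400, chromosome X, 74409483 to 74429194) encodes glucose-6-phosphate dehydrogenase, which supplies NADPH to these reductases, and its point estimate lay on the other side of 0. It had 767 and 210 UMIs, or 26.1 CPM (24.3 to 28.0) and 22.8 CPM (19.8 to 26.1), a log2 ratio of -0.19 (-0.42 to 0.03). G6pdx overlaps Ikbkg on the other strand (12.4 and 26.6 CPM), and its autosomal copy G6pd2 had 0 UMIs in both libraries. Whether counting used strand is not given in the sources used here, and the UMIs where G6pdx and Ikbkg overlap were not examined.

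The classical inducible detoxification genes were rare. Hmox1 (ENSMUSG00000005413, chromosome 8, 75093621 to 75100589), whose enzyme breaks down heme, had 140 and 43 UMIs, or 4.76 CPM (4.01 to 5.62) and 4.67 CPM (3.38 to 6.29). Nqo1 (ENSMUSG00000003849, chromosome 8, 107388225 to 107403206), a quinone reductase gene, had 24 UMIs in 23 cells of the expansion library and 14 UMIs in 14 cells of the induction library, or 0.817 CPM (0.523 to 1.22) and 1.52 CPM (0.832 to 2.55). Its log2 ratio of 0.90 (-0.17 to 1.91) is close to those of Gclc and Gclm, but the interval holds no change. Per Nfe2l2 UMI, 0.00599 Nqo1 UMIs were counted in expansion medium (0.00383 to 0.00893) and 0.0106 in induction medium (0.00578 to 0.0179).

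**Figure D1:**
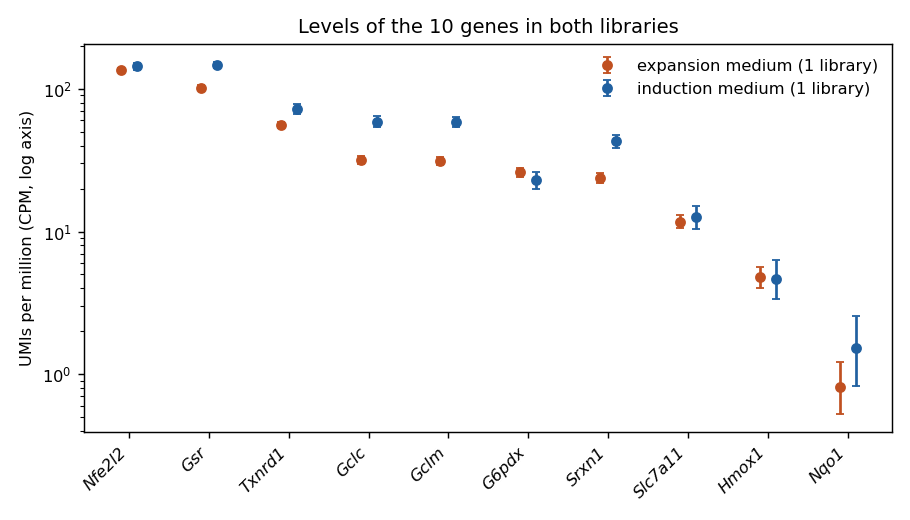
Level of each gene in CPM (log axis) in the expansion and the induction library, with 1 library each, and exact Poisson intervals as bars. From Nfe2l2 at 136 and 143 CPM to Nqo1 at 0.817 and 1.52 CPM the levels span more than 2 orders of magnitude on the axis in expansion medium, and the intervals of the libraries are apart for Gsr, Txnrd1, Gclc, Gclm and Srxn1.

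The order of levels was nearly the same in both libraries. In expansion medium it ran Nfe2l2, Gsr, Txnrd1, Gclc, Gclm, G6pdx, Srxn1, Slc7a11, Hmox1, Nqo1, and the intervals of the neighbours Gclc and Gclm, and of G6pdx and Srxn1, overlapped. In induction medium Gsr stood first and Srxn1 above G6pdx, and the neighbours Gsr and Nfe2l2, and Gclc and Gclm, overlapped.

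The point estimates of the NRF2 genes lay within 2-fold between the media, while the intervals of Gclc, Gclm, Srxn1 and Nqo1 reached past 2-fold. The 7220 genes that reached 10 CPM in either library are called measured, and 8 of the 10 genes were among them; Nqo1 and Hmox1 did not. Of the 8, 0 were at least 2-fold higher in induction medium and 0 at least 2-fold lower with an interval that excludes a ratio of 1, where 9.17% and 3.17% of all measured genes were. With 8 genes, counts of 0 do not set them apart from these shares. At a ratio of at least 1.5, Gclc, Gclm and Srxn1 were higher (3 of 8) and 0 were lower, beside 21.1% and 7.17% of all measured genes. The interval lay above a ratio of 1 for 5 of the 8 and below it for 0, beside 50.8% and 18.6% of all measured genes. The median log2 ratio of the 8 was 0.45, against 0.21 over all measured genes.

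Over genes counted 50 times or more in each library the middle log2 ratio was 0.22 on the scale of library totals. The source of this shift was not tested. Relative to this median gene, values were 0.68 for Gclm and Nqo1, 0.67 for Gclc, 0.64 for Srxn1, 0.31 for Gsr and 0.14 for Txnrd1. They were -0.12 for Slc7a11 (-0.43 to 0.19), -0.15 for Nfe2l2 (-0.24 to -0.06), -0.25 for Hmox1 (-0.78 to 0.26) and -0.41 for G6pdx (-0.64 to -0.19). On this scale the intervals of Nfe2l2 and G6pdx thus lay below no change, while on library totals both held it. Those of Gclm, Gclc, Srxn1, Gsr and Txnrd1 lay above no change, and that of Nqo1 held it. On that scale 6.65% of all measured genes were at least 2-fold higher and 4.67% lower.

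At a common depth, UMIs of the 10 genes were found in somewhat more cells of the induction library. When every cell was thinned to 2000 UMIs, which left out 0 expansion and 14 induction cells, any of the 10 genes was seen in 657 of 1191 expansion cells, a share of 55.2% (52.3 to 58.0, exact binomial), and in 810 of 1231 induction cells, a share of 65.8% (63.1 to 68.5). Without thinning the shares were 99.2% and 92.5%. Gclc was found in 6.21% (4.91 to 7.74) and 11.2% (9.50 to 13.1) of the thinned cells, and Gclm in 6.47% (5.14 to 8.01) and 11.1% (9.43 to 13.0). Nfe2l2 was found in 22.2% (19.8 to 24.6) and 25.0% (22.6 to 27.5) of them, and Gsr in 19.2% (17.0 to 21.6) and 25.0% (22.6 to 27.5). Without thinning, Gclm was found in 48.8% and 32.6% of cells, the opposite order, in libraries that differ 3.43-fold in median depth. Srxn1 was found in 4.95% and 7.88% of thinned cells, Txnrd1 in 10.7% and 13.9%, and G6pdx in 5.96% and 4.14%. Slc7a11 was found in 1.93% and 1.71% of them, Hmox1 in 1.43% and 0.975%, and Nqo1 in 0.0840% and 0.325%. The free RNA share of Xist is no yardstick for these shares, since Xist stood at 430 and 639 CPM, and no cell type that lacks the 10 genes was at hand.

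**Figure D2:**
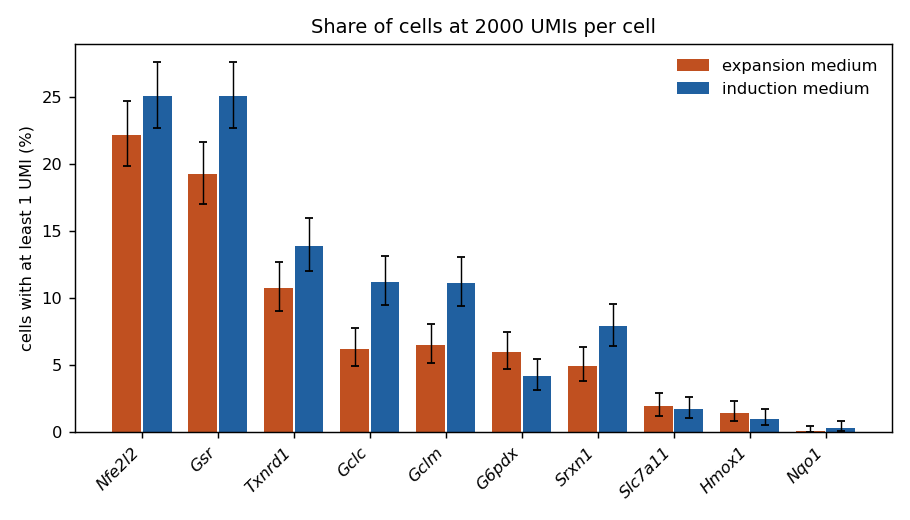
Share of cells with at least 1 UMI of each gene, in percent, after each cell was thinned to 2000 UMIs, with exact binomial intervals as bars. Gclc (6.21% and 11.2%), Gclm (6.47% and 11.1%) and Srxn1 (4.95% and 7.88%) show the widest relative gaps among genes found in more than 2% of cells.

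By variance over mean, Slc7a11 was the most unevenly spread of the 10 genes over the cells of each library. In thinned cells the variance over the mean of the UMI count was between 0.987 and 1.22 for the 10 genes in expansion medium and between 0.991 and 1.60 in induction medium, and Slc7a11 had the highest value in each (1.22 and 1.60). At these low counts per cell the value stays near 1 even where levels differ between cells. In all cells without thinning, the 10% of expansion cells with most Slc7a11 UMIs held 87.2% of them, against 27.0% for Nfe2l2 and 30.5% for Gsr, which are counted at higher levels. For Hmox1 and Nqo1, counted at lower levels, this share was 100%, so it also follows the level of a gene. Slc7a11 reached 13 UMIs in a single expansion cell, and Nfe2l2 reached 20. Summed over the 10 genes, the median cell held 3.86 UMIs per 10000 in expansion medium (5th to 95th percentile 1.40 to 8.05) and 4.93 in induction medium (0 to 12.6).

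Across thinned cells the correlations between the genes were weak, at counts too low to tell whether the genes vary together. The Pearson correlation of the 45 pairs ranged from -0.03 to 0.17 among 1191 expansion cells (median 0.01) and from -0.03 to 0.07 among 1231 induction cells (median 0.01), and these counts share the library and are sparse. The pair at 0.17, Gclm and Slc7a11 in expansion medium, had UMIs of both genes in 2 cells and a Spearman correlation of 0.01. Of 762 other genes found in at least 20% of thinned cells of both libraries, those with the highest smaller-of-2-libraries Spearman correlation with the sum of the 10 genes were Tmsb10, Tmsb4x, Xist, Ptma, Tpt1, Actg1, Eef1a1 and Rps15a. Their values were weak, from 0.13 in both libraries for Tmsb10 to 0.08 and 0.09 for Rps15a.

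Clusters of cells, found without the 10 genes and the pathway genes, differed most in Slc7a11. Each of 9 clusters had all 10 hepatocyte markers in at least 50% of its cells and is named here by its leading gene. In 8 of them, at most 15 cells came from the other medium. The exception was led by S100a6, Pcdh9, Serpine2, Wnt10a and Hmga2 and held 68 expansion cells (5.71%) and 92 induction cells (7.39%). Its UMI share of hepatocyte markers was 0.327 of that of the other cells, so it is left without a cell type name.

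In the cluster led by S100a6, Slc7a11 stood at 46.9 CPM under expansion and 49.3 CPM under induction, against 9.08 and 8.36 CPM in the other cells of each medium. The ratios were 5.16-fold (4.04 to 6.55) and 5.90-fold (3.98 to 8.67). Of all Slc7a11 UMIs, 28.1% (97 of 345) in expansion medium and 40.5% (47 of 116) in induction medium came from this cluster, which held 7.04% and 10.4% of all UMIs. Slc7a11 was detected in 41.2% of its expansion cells and 21.7% of its induction cells, against 12.1% and 4.77% of the other cells. The median depth of its cells was 28832 and 10406 UMIs, against 22838 and 6649 UMIs elsewhere. In the remaining clusters Slc7a11 ranged from 4.47 to 15.6 CPM in expansion medium and from 4.08 to 12.8 CPM in induction medium.

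Gsr was also higher in that cluster in both media, at 199 CPM against 94.7 CPM in the other expansion cells (interval of the ratio 1.89 to 2.33) and 252 CPM against 135 CPM in the other induction cells (1.87-fold, 1.62 to 2.15). Txnrd1 stood at 106 against 52.4 CPM in expansion medium (2.02-fold, 1.74 to 2.33) and at 85.0 against 70.8 CPM in induction medium (1.20-fold, 0.940 to 1.52). Nfe2l2 stood at 146 against 136 CPM in expansion medium (1.08-fold, 0.957 to 1.21) and at 238 against 132 CPM in induction medium (1.80-fold, 1.55 to 2.08). Gclc was 1.43-fold (1.14 to 1.77) and 1.84-fold (1.46 to 2.30) above the other cells, and Gclm 1.20-fold (0.937 to 1.52) and 0.943-fold (0.696 to 1.25). In expansion medium the cluster led by Tmem255a was highest in Nfe2l2 (201 CPM), Srxn1 (35.7 CPM) and G6pdx (39.5 CPM). In the cluster led by S100a6, Srxn1 stood at 34.3 against 22.9 CPM in expansion medium (interval of the ratio 1.16 to 1.92). In induction medium it stood at 36.7 against 43.5 CPM (0.844-fold, 0.579 to 1.20). G6pdx was 0.901-fold (0.660 to 1.20) and 1.01-fold (0.620 to 1.58), and Nqo1 had 0 and 1 UMIs. Hmox1 had 22 UMIs there in expansion medium, 2.46-fold above the other cells (1.49 to 3.90), and 6 UMIs in induction medium.

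Of the bile duct list, Spp1, the osteopontin gene, moved with this cluster. The list summed to 3695 CPM in its expansion cells and 5226 CPM in its induction cells, against 673 to 1581 CPM and 160 to 581 CPM in the other clusters, and Spp1 alone stood at 3586 and 5098 CPM. The other 7 genes summed to 110 CPM in its expansion cells, below the 185 to 249 CPM of the other expansion clusters, and to 128 CPM in its induction cells, within the 82.9 to 146 CPM of the other induction clusters. At least 3 UMIs were counted for 7 and 5 of the 8 listed genes, and Krt7 was at 0. The fibroblast genes Col1a1, Col3a1, Dcn, Pdgfrb and Acta2 were at 0 in this cluster in both media. The macrophage genes Ptprc, Adgre1 and Csf1r were also at 0, but the macrophage-list gene Cd68 was counted. Cd68 stood at 5.796 CPM in the cluster's expansion cells, against 1.36 CPM over the whole expansion library. In the cluster's induction cells it stood at 1.05 CPM, against 0.652 CPM over the whole induction library. The endothelial list summed to 34.3 and 30.4 CPM in the cluster, nearly all of it Egfl7. The part of Spp1-high cells or of depth in the levels of Slc7a11 and Gsr was not tested.

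In each medium 1 cluster was lowest in most of these genes. In expansion medium the cluster led by the acute phase genes Orm2 and Saa1 was lowest in Nfe2l2 (87.0 CPM, 80.8 to 93.6), Gclc (21.4 CPM), Srxn1 (17.7 CPM), Txnrd1 (40.8 CPM), Gsr (73.0 CPM) and Slc7a11 (4.47 CPM). Its sum over the 10 genes was 305 CPM (294 to 317), against 648 CPM (614 to 683) in the cluster led by S100a6. In induction medium the cluster led by the serpin genes Serpina3k and Serpina3m was lowest in Nfe2l2 (94.1 CPM, 82.0 to 107), Gclc (34.1 CPM), Srxn1 (23.3 CPM) and Txnrd1 (47.5 CPM). Its UMI share of hepatocyte markers was the highest of the 9 clusters, at 9.89%. Cells with Xist and no Y-linked UMI made up 9.12% of the cluster led by Orm2 and 9.86% of that led by Serpina3k. In the other clusters the share of such cells ran from 10.9% to 97.4%. The part of these shares in the levels was not tested.

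**Figure D3:**
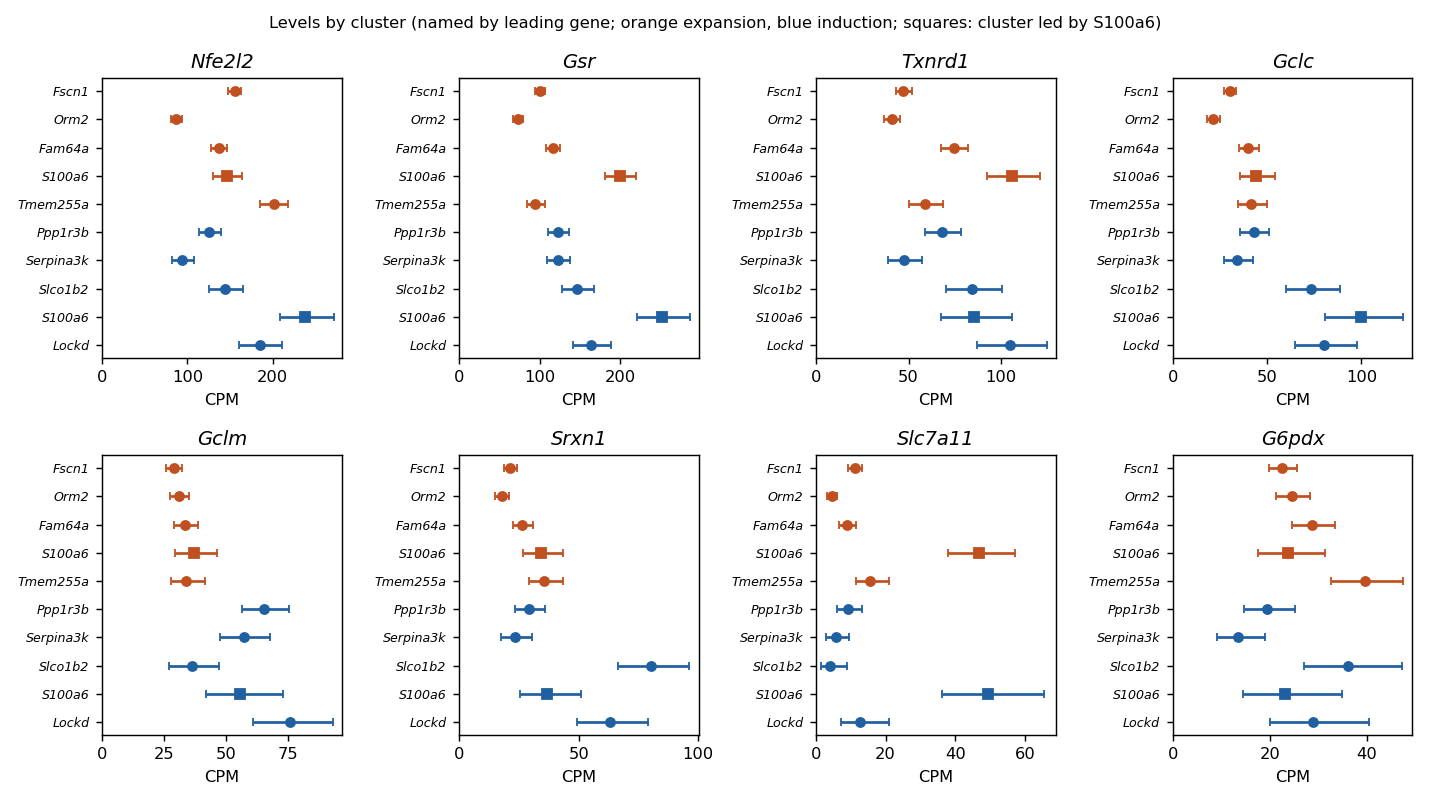
Level of 8 of the genes in CPM in each cluster with at least 30 cells of a medium, with exact Poisson intervals; rows are clusters named by their leading gene, orange for expansion and blue for induction medium, and squares mark the cluster led by S100a6. Slc7a11 stands at 46.9 and 49.3 CPM in the squares and at no more than 15.6 CPM elsewhere, and Srxn1 is highest, at 80.3 CPM, in the induction cluster led by Slco1b2.

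The ratio of the 2 glutamate-cysteine ligase subunits varied among clusters. Its interval held 1 in 4 of 5 expansion clusters and in 1 of 5 induction clusters, the one led by Lockd (1.06, 0.782 to 1.43). In the induction cluster led by Slco1b2, 2.04 Gclc UMIs were counted per Gclm UMI (1.45 to 2.89), with Gclc at 73.5 CPM and Gclm at 36.0 CPM (27.0 to 47.2). In the induction clusters led by Ppp1r3b and Serpina3k the values were 0.656 (0.520 to 0.826) and 0.598 (0.447 to 0.797), and in the expansion cluster led by Orm2 0.691 (0.568 to 0.841). The induction cells of the cluster led by S100a6 had 1.79 (1.27 to 2.56), and the 4 expansion clusters whose interval held 1 ranged from 1.04 to 1.22. Srxn1 in the cluster led by Slco1b2 stood at 80.3 CPM (66.4 to 96.1), against 29.2 CPM (23.4 to 36.1) in the cluster led by Ppp1r3b. Of the cells in the cluster led by Slco1b2, 97.4% held Xist and no Y-linked UMI, so that cluster and the sex of its cells cannot be told apart. The share of such cells was 10.9%, 9.86% and 9.12% in the clusters led by Ppp1r3b, Serpina3k and Orm2. It was 36.25% in the cluster led by S100a6, over both media. The part of these shares in the subunit ratio was not tested.

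Split by sex-linked transcripts, the same genes parted, in sets that overlap the clusters above. Cells with at least 1 Xist and 0 Y-linked UMIs numbered 325 in expansion and 412 in induction medium. Cells with at least 1 Y-linked and 0 Xist UMIs numbered 505 and 503. Of the 234 cells in the cluster led by Slco1b2, 97.4% are among the 412, so the split is not a separate result. That cluster held 118 Srxn1 UMIs, and the 412 cells held 215. Left out were 275 expansion and 22 induction cells with UMIs of both kinds, and 86 and 308 cells with neither. UMIs were taken without thinning from libraries of unequal depth, so the sets may not hold comparable cells of each medium. The cells of the 2 sets may also come from different animals, which the labels do not name. Srxn1 stood at 28.5 and 70.0 CPM in the cells with Xist, a log2 ratio between the media of 1.30 (1.02 to 1.57), while the log2 ratio in the cells with Y-linked transcripts was 0.47 (0.15 to 0.78). Gclc had log2 ratios of 1.14 (0.89 to 1.38) and 0.69 (0.42 to 0.95), while Gclm went the other way about, with 0.54 (0.24 to 0.84) in cells with Xist and 1.04 (0.80 to 1.28) in cells with Y-linked transcripts. In induction medium this left 1.83 Gclc UMIs per Gclm UMI in cells with Xist (1.49 to 2.26) and 0.706 in cells with Y-linked transcripts (0.580 to 0.858). Of the 8 measured genes, Gclc and Srxn1 were thus at least 2-fold higher in cells with Xist, where 12.0% of all measured genes were, and Gclm in cells with Y-linked transcripts, where 8.46% were; 0 were at least 2-fold lower, beside 2.69% and 4.13%. The differences between the 2 sets of cells have no test, since each set comes from 1 library per medium.

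Levels of several genes also differed between these cells within a medium. Nfe2l2 was 1.38-fold higher in cells with Xist in expansion medium (168 and 122 CPM; 1.28 to 1.48) and 1.46-fold higher in induction medium (186 and 127 CPM; 1.29 to 1.64). The sum of the 10 genes was 1.25-fold (1.20 to 1.30) and 1.36-fold (1.28 to 1.44) higher there. Srxn1 in induction medium was 2.30-fold higher in cells with Xist (1.83 to 2.89). G6pdx, the X-linked gene, was 1.30-fold (1.10 to 1.55) and 1.55-fold (1.13 to 2.13) higher in them.

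**Figure D4:**
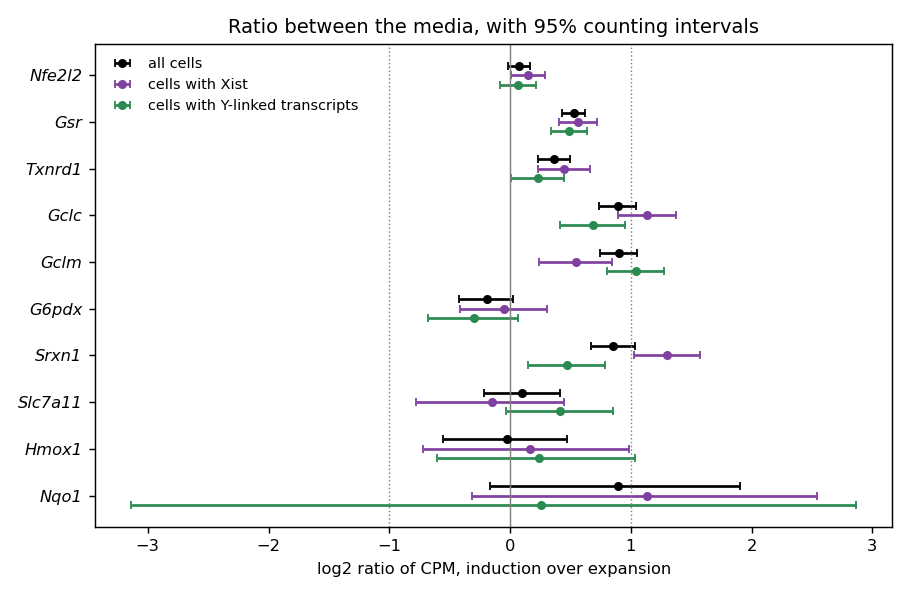
Log2 ratio of CPM between the media (induction over expansion) for each gene, over all cells and over the cells with Xist or with Y-linked transcripts, with 95% counting intervals; dotted lines mark 2-fold. Gclc and Srxn1 pass 2-fold in cells with Xist (1.14 and 1.30) and Gclm in cells with Y-linked transcripts (1.04), each with an interval above 0, beside 12.0% and 8.46% of all measured genes, while none does in all cells. Nqo1 lies at 1.13 in cells with Xist with an interval that holds 0.

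Cells with G2/M transcripts, which are preparing for or in mitosis, held more Txnrd1, Gclc and Gsr in both media, and more of the 10 genes in sum. These cells had at least 2 of 15 listed G2/M genes at 2000 UMIs and numbered 126 in expansion and 80 in induction medium. Txnrd1 stood at 83.7 against 52.6 CPM in the other expansion cells (log2 ratio 0.67, 0.48 to 0.86) and at 110 against 68.8 CPM in the other induction cells (0.67, 0.34 to 1.00). Gclc stood at 46.4 against 29.9 CPM (0.63, 0.37 to 0.88) and at 110 against 53.9 CPM (1.03, 0.68 to 1.35). Gsr stood at 121 against 99.7 CPM (0.28, 0.12 to 0.43) and at 194 against 143 CPM (0.45, 0.20 to 0.68). The sum of the 10 genes had log2 ratios of 0.23 (0.16 to 0.31) and 0.52 (0.40 to 0.64). Gclm did not stand apart in either medium (0.08, -0.22 to 0.37, and 0.19, -0.24 to 0.60). Nfe2l2 stood at 136 CPM in both kinds of expansion cells, and at 192 against 139 CPM in induction medium (0.46, 0.22 to 0.71). The median depths of the G2/M cells were 25171 and 9998 UMIs, against 22900 and 6670 UMIs in the others.

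The wider pathway was described with 8 lists, of 96 different genes, of which 81 were measured. At least 2-fold higher in induction medium were 12 of the 81 and at least 2-fold lower 2, beside 9.17% and 3.17% of all measured genes. On the scale of the median gene they were 10 and 4, beside 6.65% and 4.67%. None of the 10 measured regulators of NRF2 passed 2-fold. Keap1, the sensor, stood at 28.0 and 37.8 CPM (log2 ratio 0.43, 0.25 to 0.62), and Sqstm1, an autophagy adaptor that binds KEAP1, at 62.7 and 106 CPM (0.75, 0.64 to 0.86). Bach1, a repressor that competes for the same elements, stood at 21.7 and 34.4 CPM (0.66, 0.47 to 0.86), and the small MAF genes Mafg, Maff and Mafk had log2 ratios of 0.48, 0.38 and 0.74. The ligase genes Cul3 and Rbx1 had 0.18 and 0.56, Nfe2l1 0.30 and Gsk3b, whose kinase CHIR99021 inhibits, -0.03 (-0.16 to 0.10). Bach2 and Btrc did not reach 10 CPM, with log2 ratios of -0.45 and -0.37 and intervals that hold no change.

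In the lists of peroxide removal, glutathione, NADPH and heme genes, 1 gene each was at least 2-fold higher in induction medium. In the thioredoxin list 3 were, and in all of these lists 0 were at least 2-fold lower. Of all measured genes, 9.17% were higher and 3.17% lower. With 3 to 13 measured genes per list, these counts do not set the lists apart from these shares. Cat, the catalase gene, went from 54.7 CPM under expansion to 258 CPM under induction (log2 ratio 2.24, 2.15 to 2.33), the only of 3 measured genes for superoxide and peroxide removal past 2-fold, and Sod2, the most abundant of that list, at 400 and 451 CPM. Of 13 measured thioredoxin and peroxiredoxin genes, 3 were at least 2-fold higher: Txnip, an inhibitor of thioredoxin (log2 ratio 2.16, 134 CPM in induction medium), Prdx6 (164 and 421 CPM) and the methionine sulfoxide reductase gene Msra (9.63 and 27.3 CPM). Prdx1, the most abundant of that list, stood at 629 and 1168 CPM, a log2 ratio of 0.89 (0.86 to 0.93). Of 12 measured genes of glutathione use and synthesis, 1 was at least 2-fold higher, Oplah, whose enzyme returns 5-oxoproline to glutamate (4.70 and 14.2 CPM), and Gpx1, the most abundant, stood at 1188 and 1182 CPM. Of 8 genes of NADPH supply, only the malic enzyme gene Me1 passed 2-fold (12.1 and 36.5 CPM), and Pgls, the most abundant on average, had 250 and 233 CPM, beside Tkt with 203 and 235 CPM. Of 8 measured genes of heme and iron handling, Abcb6, a porphyrin transporter gene, passed 2-fold (4.08 and 12.2 CPM), and the ferritin gene Fth1 stood at 7837 and 11133 CPM.

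The conjugation and export list went both ways, where 9.17% of all measured genes were at least 2-fold higher and 3.17% at least 2-fold lower. Of its 17 measured genes, 3 were at least 2-fold higher, Gstm3 (5.51 and 115 CPM; log2 ratio 4.38, 4.14 to 4.62), Gsta3 (307 and 701 CPM) and the epoxide hydrolase gene Ephx1 (28.1 and 59.0 CPM), and 2 lower, Gsta1 (125 and 14.9 CPM; -3.07, -3.33 to -2.82) and Gsta4 (327 and 75.9 CPM). On the scale of the median gene these counts were 1 and 3, beside 6.65% and 4.67% of all measured genes. Gstm1, the most abundant, stood at 608 and 1209 CPM. The glutathione transferases have near-identical copies, so the split of UMIs among them is uncertain. The list median was 0.04, the lowest of the 8 lists.

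Because Slc7a11 is also a target of ATF4, the transcription factor of amino acid stress, a list of 12 genes was set beside it. The list holds Atf4 itself and targets of ATF4. Of 11 measured, 2 were at least 2-fold higher in induction medium, Trib3 (3.44 and 10.9 CPM) and the asparagine synthetase gene Asns (5.78 and 13.8 CPM). The count at least 2-fold lower was 0, and of all measured genes 9.17% were higher and 3.17% lower. On the scale of the median gene 2 passed upward and 1 downward, beside 6.65% and 4.67% of all measured genes. The gene that passed downward was Slc7a5 (11.2 and 5.76 CPM). Atf4, the most abundant, stood at 91.6 and 146 CPM (log2 ratio 0.68, 0.58 to 0.77), while Slc7a11 did not differ beyond counting error.

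**Figure D5:**
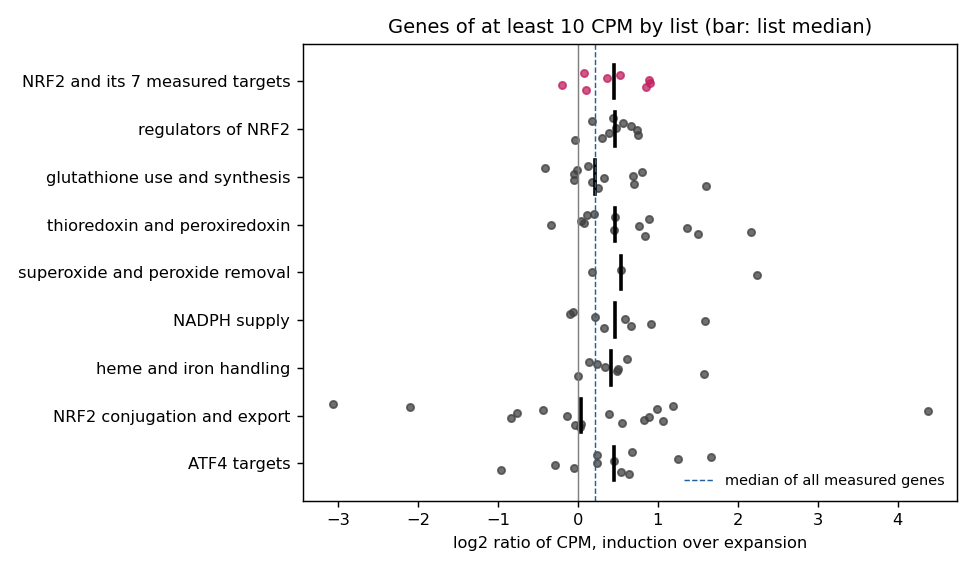
Log2 ratio of CPM between the media (induction over expansion) for genes of at least 10 CPM in the higher library; each dot is a gene, the bar the median of the list, and the dashed line the median of all measured genes at 0.21. The NRF2 genes lie between -0.19 and 0.90, and the widest spread, from -3.07 to 4.38, is in the conjugation and export list.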

How the data were processed

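Per the labels' protocols, libraries were made with the 10x Genomics Chromium system. The authors deposited UMI counts per gene and barcode, not normalized. Per the submitters' processing notes, Cell Ranger 2.1.1 and build mm10 were used. Of the annotation release and the calling of cells, the sources used here say nothing. The 10 genes and the lists were chosen with earlier results of these data known.

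Counts were summed over the kept cells of a library and divided by its total (CPM). A count of 3 UMIs, the floor, is 0.102 CPM in expansion and 0.326 CPM in induction medium. Ratios carry exact conditional binomial intervals, levels exact Poisson intervals and shares exact Clopper-Pearson intervals, at 95%; with 1 library per medium no p-value was computed. The ratio code was tested on simulated counts. Cells were thinned without replacement with a fixed seed. Leiden clusters (scanpy 1.11.5, igraph 0.11.9, resolution 0.6, 15 neighbours, 20 components of 2000 variable genes) left out the 10 genes and the pathway lists. Scrublet marked 4 and 2 cells as doublets, a share too low to rely on; they stayed in the reported values. Named genes were the 10 genes, all regulators, and in each other list the most abundant gene and those at least 2-fold apart; also the 8 genes most like the sum and genes leading clusters. Spp1 and other cell type markers were named as checks, and Ikbkg and G6pd2 as overlapping or copied genes. Positions are from GENCODE M21, matched by gene ID (28339 of 28692 found). Scripts ran on pandas 2.3.3, scipy 1.17.1 and numpy 2.4.6 under Python 3.11.15. Alternatives covered cell filters, scaling, cell weights, thinning, doublets, sex-linked transcripts, G2/M cells and thresholds.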

Additional observations from a re-analysis of the deposited data

Results flagged for a closer look

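Slc7a11 had log2 ratios between the media of opposite sign in the 2 sets of cells split by sex-linked transcripts, -0.15 (-0.77 to 0.44) in cells with Xist and 0.42 (-0.04 to 0.85) in cells with Y-linked transcripts. Both intervals hold no change, and the difference was not tested. UMIs of the 10 genes were also present in barcodes that the cell filter left out, with 46 UMIs in 17 expansion barcodes (296 CPM, 216 to 394, against 425 CPM in kept cells) and 36 UMIs in 30 induction barcodes (347 CPM, 243 to 481, against 565 CPM).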

How the results depend on the processing

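No paired analysis was possible because each medium had 1 library. The 10 log2 ratios were recomputed under 13 alternatives, 3 of them chosen after seeing the data (cells with more Xist than Y-linked UMIs, cells with more Y-linked than Xist UMIs, and all cells but the cluster led by S100a6). Of the 130 values, 99 lay inside the interval of the reported ratio and 31 outside it. Gclc, Gclm, Srxn1, Gsr, Txnrd1 and Nqo1 stayed above 0 under all 13, and G6pdx stayed below 0 under all 13. Nfe2l2 fell below 0 in 3, Slc7a11 in 5 and Hmox1 in 6. The median of the NRF2 genes, 0.45, was 0.22 without mitochondrial and ribosomal protein genes and 0.23 relative to the median gene. The number at least 2-fold higher, 0 as reported, was 2 in cells with Xist only (12.0% of all measured genes), 1 in cells with Y-linked transcripts only (8.46%), 2 in cells with more Xist than Y-linked UMIs (12.1%), 1 in cells with more Y-linked than Xist UMIs (8.50%) and 3 at a ratio of at least 1.5 (21.1%); the number at least 2-fold lower was 0 under every alternative run. Without the cluster led by S100a6, the log2 ratio of Slc7a11 was -0.12. The median share of cells with a UMI, 6.09% in expansion and 9.50% in induction medium at 2000 UMIs, was 2.60% and 4.90% at 1000 UMIs and 46.4% and 26.7% without thinning, so its order between the media turned with depth. Without a CPM minimum, 16 and 2 pathway genes passed 2-fold. Levels under about 5 CPM, as of Nqo1 and Hmox1, rest on few UMIs in the induction library.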
